A study of Mus musculus with 16 samples.

Results

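Voltage-gated calcium channel subunit genes were examined in RNA sequencing of mouse left ventricles. The 9 genes are Cacna1c, Cacna1d, Cacna1g and Cacna1h, which encode pore-forming α1 subunits, Cacnb1, Cacnb2 and Cacnb3, which encode β subunits, and Cacna2d1 and Cacna2d2, which encode α2δ subunits. They were taken by gene name from the deposited table, and all 9 were found among its 55492 genes. All 9 also passed the filter on low values that left 20576 genes for testing, a mean of at least 10 normalized counts over the 16 libraries. The mice were male C57BL/6 animals of 8 to 12 weeks, and each library came from its own mouse. PKM2fl/fl mice carry loxP sites around exon 10 of Pkm, the exon of the M2 isoform of pyruvate kinase, and PKM2-/- mice lack that exon in every cell. The deletion was made in the germline with Cre under a CMV promoter, and the Cre allele was then bred out. Each genotype had 2 baseline mice without surgery, 3 mice after sham surgery, and 3 mice at 3 days after permanent ligation of the left anterior descending artery, a group named 3d MI. Sham mice had the same operation without the ligation. Gene-level reads of Pkm add up its isoforms and so check nothing about the deleted exon.

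Voltage-gated calcium channels open when the membrane depolarizes and let calcium into the cell. In ventricular cardiomyocytes the L-type channel built on Cacna1c carries the calcium current that triggers release of calcium from the sarcoplasmic reticulum and so contraction, and Cacna1d encodes an L-type pore that opens at more negative voltages and is known for its part in sinoatrial pacemaking. Cacna1g and Cacna1h encode T-type pores, which open briefly at negative voltages and are known from the conduction system and the developing heart. β subunits sit on the intracellular side, bind the L-type pore and set its surface density and gating. α2δ subunits are extracellular, promote trafficking of the pore and are the binding site of gabapentin.

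The feature that parts the L-type from the T-type genes among these members can be seen in the coding sequence of the selectivity filter, the ring of acidic residues that binds calcium in the pore. In the third of the 4 repeats of the protein, with the codon of the acidic residue in capitals, the mouse reference (GENCODE M39, GRCm39, coding strand) reads as follows.
Cacna1c: gtctccaccttcGAAgggtggccagag
Cacna1d: gtctcaacttttGAGggctggcccgcg
Cacna1g: ctggcctccaagGATggctgggttgac
Cacna1h: ctgtcatccaagGATggctgggtaaac
The codon is a glutamate codon in Cacna1c and Cacna1d and an aspartate codon in Cacna1g and Cacna1h. Across the 27 bases, the L-type pair was identical at 20 positions and the T-type pair at 23, against 14 between Cacna1c and either T-type gene. The stretch lies in exon 24 of 38 of Cacna1g (chr11:94317285-94317311) and exon 24 of 35 of Cacna1h (chr17:25602470-25602496), all on the minus strand. In Cacna1c and Cacna1d it is joined from exons 27 and 28, which an intron separates (chr6:118631416-118633099 and chr14:29821200-29822679, also on the minus strand).

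The site at which a β subunit docks on the intracellular loop after the first repeat is shown because it ties the β members to the L-type pores. It lies in exon 9 of each gene (chr6:118711867-118711935 and chr14:29864557-29864625 in GRCm39, minus strand), with the core of the docking site in capitals.
Cacna1c: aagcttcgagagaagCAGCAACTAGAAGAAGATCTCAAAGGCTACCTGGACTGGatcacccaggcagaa
Cacna1d: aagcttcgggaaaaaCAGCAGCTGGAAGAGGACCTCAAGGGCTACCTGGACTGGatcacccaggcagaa
The L-type genes were identical at 61 of these 69 bases, and a search of the translated coding sequence for the residues conserved in this core found it in both of them and found 0 matches in Cacna1g or Cacna1h.

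The members lie apart in the genome (RefSeq, GRCm38.p6). The L-type genes Cacna1c (chr6:118587240-119197384) and Cacna1d (chr14:30039941-30491156) and the T-type genes Cacna1g (chr11:94408391-94474400) and Cacna1h (chr17:25374285-25436334) are on the minus strand, as is Cacnb1 (chr11:98001508-98023034). Cacnb2 (chr2:14603861-14988811), Cacnb3 (chr15:98628436-98644536), Cacna2d1 (chr5:15934264-16374511) and Cacna2d2 (chr9:107399733-107529346) are on the plus strand. Exons of Cacnb2 overlap the opposite-strand genes Gm10848 over 385 bases and Gm13269 over 239 bases, which averaged 84.6 and 66.9 normalized counts.

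The libraries held 20623769 to 71855101 reads each, of which 15.8% to 46.0% fell on rRNA-related loci. The deposited normalized counts are read counts divided by a size factor of the library, and 100% of the 465236 values above 0 were recovered as whole reads (tolerance 0.01 reads). The summed cardiomyocyte markers were abundant in every group, though lower after infarction. The markers of neurons, skeletal muscle and fat were low in every group. The library PKM2fl/fl 3d MI 3 stood apart from the other PKM2fl/fl infarcted ventricles in the markers of cardiomyocytes, with a summed level of 160574 normalized counts against 380656 and 360289, and below the 171380 to 247939 of the PKM2-/- infarcted ventricles. For the members, the infarct minus sham differences in PKM2fl/fl mice and the genotype differences after infarction are given with and without it.

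Compared per kilobase of exon, Cacna1c was the most abundant member in all 6 groups. In PKM2fl/fl ventricles at baseline its level was 1332 ± 189 normalized counts per kilobase (SD, n = 2), followed by Cacnb2 at 524 ± 45.5 and Cacna2d1 at 373 ± 12.1. These 3 genes were separated from the other 6 members by a gap. Cacna1g, the more abundant T-type gene, stood at 41.6 ± 7.05 and Cacnb1, the β subunit best known from skeletal muscle, at 27.1 ± 1.35. Cacna1d stood at 23.0 ± 0.783, Cacnb3 at 15.2 ± 0.817, Cacna1h at 10.4 ± 5.08 and Cacna2d2 at 7.60 ± 2.95. The values of Cacna1h and Cacna2d2 overlapped, and no other neighbours in this order did. Exon length is the union over all transcripts of a gene, and the order of neighbours depends on that choice. After sham surgery the values of Cacnb2 and Cacna2d1 overlapped in both genotypes, and so did those of Cacna1g and Cacna1d.

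**Figure D1:**
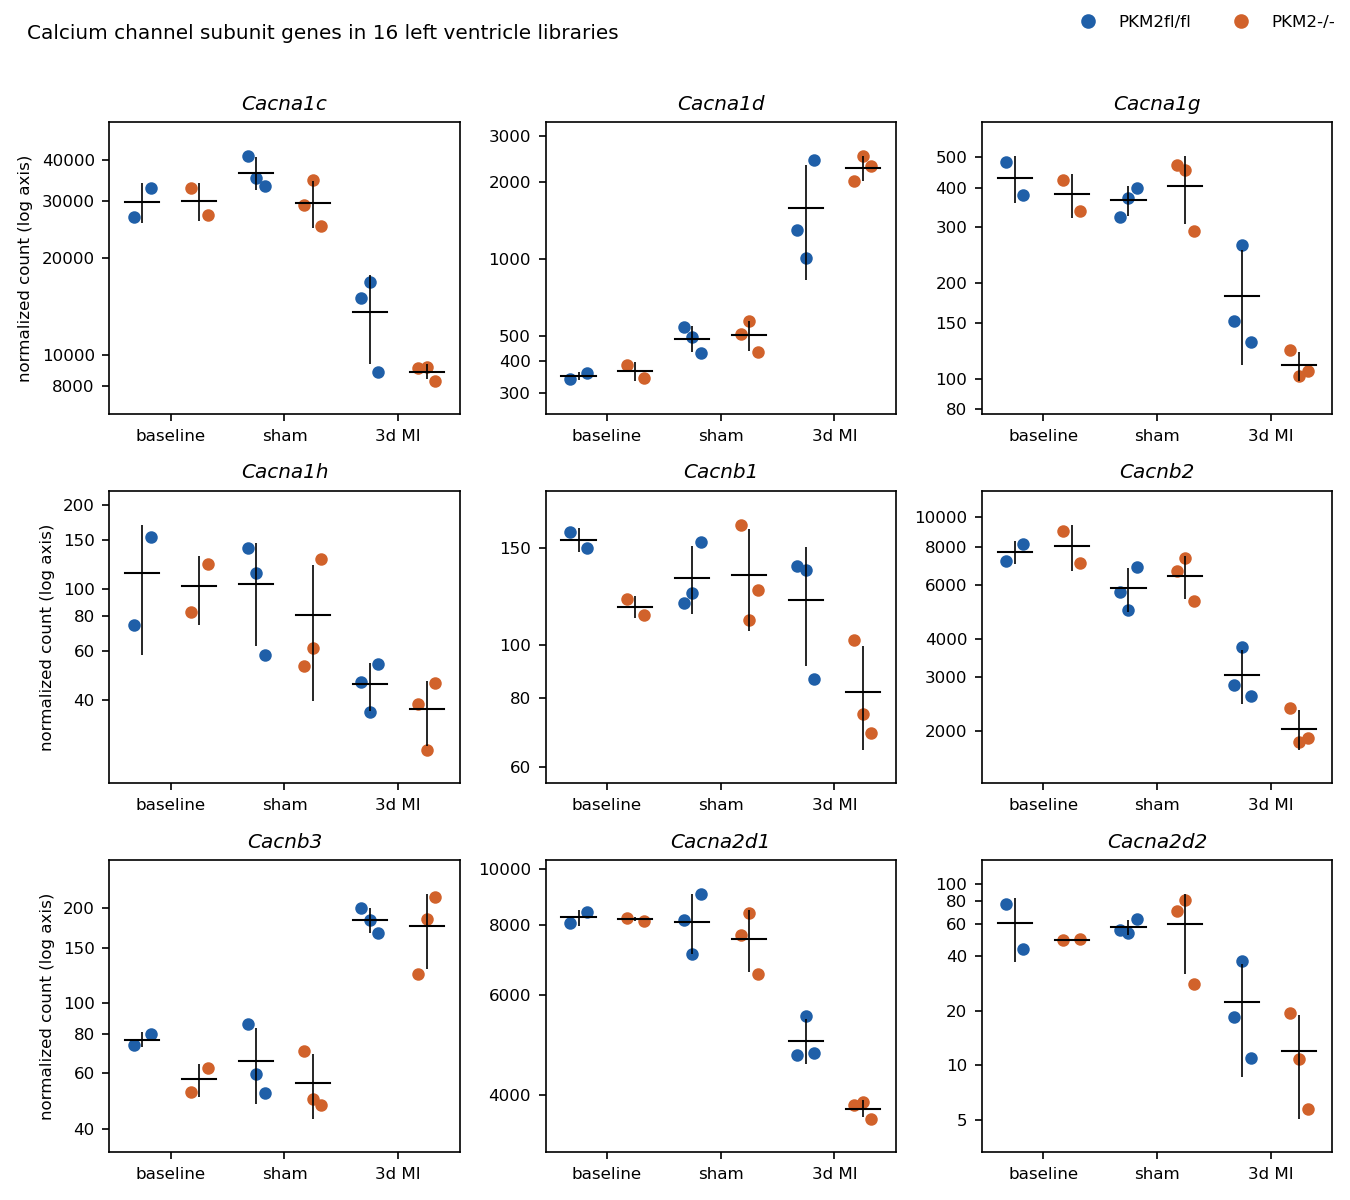
Normalized count of each member (log axis) in the 16 left ventricle libraries, on the deposited normalization, by treatment and genotype. Each point is 1 mouse, and the horizontal and vertical bars give the mean ± SD. Cacna1d and Cacnb3 lie higher after 3d MI than after sham surgery in both genotypes, and the other members lie lower or, for Cacnb1 in PKM2fl/fl, overlap.

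At 3 days after infarction, 8 of the 9 members differed from sham surgery in PKM2fl/fl mice, with 2 higher and 6 lower, and all 9 differed in PKM2-/- mice, with 2 higher and 7 lower. A member was called at an adjusted p under 0.05 (limma, adjusted by Benjamini-Hochberg over all 20576 genes). Infarction moved much of the transcriptome, since 50.1% of all genes passed in PKM2fl/fl mice (24.8% higher and 25.3% lower) and 56.8% in PKM2-/- mice (28.7% higher and 28.1% lower). The members that rose were Cacna1d and Cacnb3 in both genotypes. The median log2 difference of the 9 members was -0.94 in PKM2fl/fl and -1.02 in PKM2-/- mice, beside -0.0025 and 0.011 over all genes tested. The values of sham and infarcted ventricles did not overlap for 8 members in PKM2fl/fl mice and for 9 in PKM2-/- mice, which holds for 59% and 62.3% of all genes. The directions given here for the members that fell hold on the deposited normalization. On values taken relative to cardiomyocyte markers, given further on, none of them was called lower. Only Cacna2d2 in PKM2-/- mice then lay below 0, at -0.24 (limma, adjusted p = 0.621). In bulk tissue, fewer cells of a type and less RNA per cell cannot be told apart.

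Among the pore-forming genes, Cacna1c fell and Cacna1d rose. Cacna1c had 41356, 35280 and 33273 normalized counts in the PKM2fl/fl sham ventricles and 14982, 16847 and 8855 after infarction. Its PKM2-/- values were 29055, 34747 and 25058 after sham surgery and 9136, 9166 and 8327 after infarction. Every infarcted ventricle lay below every sham ventricle of either genotype, and PKM2fl/fl 3d MI 3 was the lowest of its group. Cacna1c fell by 1.48 on the log2 scale in PKM2fl/fl (standard error 0.21, adjusted p = 3.59e-05, 2.79-fold lower) and by 1.73 in PKM2-/- mice (standard error 0.21, adjusted p = 5.97e-06, 3.31-fold lower).

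Cacna1d, the other L-type gene, moved in the opposite direction. It had 542, 498 and 429 normalized counts in the PKM2fl/fl sham ventricles and 1298, 1004 and 2426 after infarction. The PKM2-/- ventricles had 510, 572 and 436 after sham surgery and 2005, 2507 and 2291 after infarction. All 6 infarcted ventricles lay above all 6 sham ventricles, and within PKM2fl/fl the highest value was again that of 3d MI 3, which lay among the PKM2-/- values. The log2 difference was 1.59 in PKM2fl/fl (standard error 0.23, adjusted p = 4.31e-05, 3.01-fold higher) and 2.17 in PKM2-/- mice (standard error 0.23, adjusted p = 1.88e-06, 4.48-fold higher). Without PKM2fl/fl 3d MI 3 the difference in PKM2fl/fl was 1.23 (adjusted p = 1.13e-05). The exons of Cacna1d share 1477 bases with Chdh, a gene on the opposite strand, and the strand setting of the counting is not given in the sources used here. Chdh averaged 23.5 normalized counts over the libraries.

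Both T-type genes fell. Cacna1g had 323, 372 and 401 normalized counts in the PKM2fl/fl sham ventricles and 151, 265 and 131 after infarction. In PKM2-/- mice it had 471, 456 and 292 after sham surgery and 123, 102 and 105 after infarction, with no overlap in either genotype. The log2 difference was -1.06 in PKM2fl/fl (standard error 0.24, adjusted p = 0.00159) and -1.85 in PKM2-/- mice (standard error 0.24, adjusted p = 1.01e-05). Cacna1h was far lower, at 30 to 59 reads in each infarcted ventricle. It had 58.3 to 140 normalized counts in the PKM2fl/fl sham group and 36.4 to 54.0 after infarction, and 53.1 to 128 and 26.7 to 46.2 in the PKM2-/- groups. These groups did not overlap but lay close, and the log2 differences of -1.10 (standard error 0.39, adjusted p = 0.0282) and -1.02 (standard error 0.39, adjusted p = 0.0359) had the largest adjusted p of the pore-forming genes. In PKM2fl/fl the adjusted p of Cacna1h rose to between 0.054 and 0.127 without sham replicate 1 or 2 or 3d MI replicate 1 or 2, and in PKM2-/- to between 0.059 and 0.189 without sham replicate 3 or 3d MI replicate 1 or 2.

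Among the β subunit genes, Cacnb2 fell, Cacnb3 rose and Cacnb1 fell in PKM2-/- mice. Cacnb2, the predominant cardiac β gene, had 5688, 4989 and 6860 normalized counts in the PKM2fl/fl sham ventricles and 2832, 3755 and 2601 after infarction. Its counts in PKM2-/- mice were 6678, 7329 and 5313 after sham surgery and 2390, 1844 and 1901 after infarction. The lowest sham value was above the highest infarcted value in both genotypes. Cacnb2 fell by 0.94 on the log2 scale in PKM2fl/fl (standard error 0.17, adjusted p = 3.02e-04) and by 1.65 in PKM2-/- mice (standard error 0.17, adjusted p = 1.51e-06, 3.14-fold lower), the smallest p of any member.

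Cacnb3, a β subunit also found in smooth muscle and nervous tissue, had 85.8, 59.5 and 52.0 normalized counts in the PKM2fl/fl sham ventricles and 199, 183 and 166 after infarction. For PKM2-/- mice the counts were 70.7, 49.6 and 47.5 after sham surgery and 124, 185 and 216 after infarction. All infarcted values lay above all sham values, and unlike Cacna1d the gene was not highest in PKM2fl/fl 3d MI 3. The log2 difference was 1.49 (standard error 0.24, adjusted p = 1.09e-04, 2.81-fold higher) in PKM2fl/fl and 1.61 (standard error 0.24, adjusted p = 3.79e-05, 3.06-fold higher) in PKM2-/- mice. Cacnb1 had 119 to 154 normalized counts after sham surgery and 86.9 to 139 after infarction in PKM2fl/fl, which overlap, with a log2 difference of -0.15 (standard error 0.22, adjusted p = 0.586). In PKM2-/- mice it had 111 to 166 and 69.2 to 102, and fell by 0.70 on the log2 scale (standard error 0.22, adjusted p = 0.0118). That call was lost without PKM2-/- sham replicate 1 (adjusted p = 0.0634) or 3d MI replicate 3 (adjusted p = 0.0535).

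Both α2δ genes fell. Cacna2d1 had 8138, 7088 and 9037 normalized counts in the PKM2fl/fl sham ventricles and 4716, 5518 and 4749 after infarction, and in PKM2-/- mice 7656, 8399 and 6534 and then 3847, 3892 and 3641. It had the smallest standard error of the 9, and no infarcted value reached a sham value of its genotype. Cacna2d1 fell by 0.69 on the log2 scale in PKM2fl/fl (standard error 0.11, adjusted p = 1.39e-04) and by 0.98 in PKM2-/- mice (standard error 0.11, adjusted p = 4.33e-06), the smallest drop among the abundant members. Cacna2d2 rested on 4 to 35 reads in the infarcted ventricles. It had 55.2, 53.4 and 63.7 normalized counts in the PKM2fl/fl sham group and 18.5, 37.5 and 11.0 after infarction, and in PKM2-/- mice 70.7, 81.0 and 28.0 and then 19.5, 10.8 and 5.77. The log2 differences of -1.49 (standard error 0.48, adjusted p = 0.0184) and -2.24 (standard error 0.48, adjusted p = 0.00104) had the widest errors of the 9, and the first was lost without PKM2fl/fl 3d MI replicate 3 (adjusted p = 0.0927) or PKM2fl/fl sham replicate 3 (adjusted p = 0.0542). With the rRNA-related share of each library as a covariate it was -0.77 in PKM2fl/fl mice and was also lost (adjusted p = 0.123).

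Without PKM2fl/fl 3d MI 3, which leaves 2 infarcted PKM2fl/fl ventricles, 7 of the 9 members were called against sham surgery in PKM2fl/fl mice. With all libraries, 50.1% of all genes were called in this comparison. The share without PKM2fl/fl 3d MI 3 is not given here, so the count of 7 has no background from its own fit. The L-type differences were then -1.20 for Cacna1c (adjusted p = 2.32e-05) and, as given above, 1.23 for Cacna1d. The T-type differences were -0.86 for Cacna1g (adjusted p = 0.00899) and -1.23 for Cacna1h (adjusted p = 0.0338). Among the β genes Cacnb2 stood at -0.83 (adjusted p = 0.00147), Cacnb3 at 1.56 (adjusted p = 2.96e-04) and Cacnb1 at 0.07 (adjusted p = 0.817). Cacna2d1 stood at -0.66 (adjusted p = 4.32e-04) and Cacna2d2 at -1.09 without passing. Every called member kept its direction, and Cacnb1, not called in either fit, changed sign.

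Levels of cell type markers moved together with these differences. The summed level of 8 cardiomyocyte markers was 749294 to 986434 normalized counts in the 10 libraries without infarction and 160574 to 380656 in the infarcted ventricles, where 7 of the 8 fell in PKM2fl/fl and 8 of 8 in PKM2-/- mice. The 6 fibroblast markers summed to 14404 to 38717 without infarction and 115293 to 154614 with it, with 4 of 6 higher and 1 lower in each genotype. The 6 leukocyte markers summed to 3263 to 9376 and to 18528 to 33356, with 5 of 6 higher in each genotype. Within the infarcted PKM2fl/fl group, the library with the least cardiomyocyte marker level also had the most leukocyte marker level, 33356 normalized counts against 22162 and 18528, and was the one with the most Cacna1d. The 5 endothelial markers summed to 14615 to 20542 in the libraries without infarction and 17258 to 20148 in those with it, with 2 higher in PKM2fl/fl mice and 1 higher and 1 lower in PKM2-/- mice. Of the 5 smooth muscle and pericyte markers, 3 rose and 1 fell in PKM2fl/fl mice and 2 rose and 2 fell in PKM2-/- mice. Of the 6 atrial and nodal markers, genes of the chambers and pacemaker tissue in which Cacna1d is best known, Nppa rose and Hcn4, the pacemaker channel of the sinus node, fell in both genotypes, and the other 4 did not pass the test in either. Their summed level was 1917 to 7199 normalized counts in the libraries without infarction and 9131 to 11788 in those with it. The summed neuron and Schwann markers reached at most 470 normalized counts in any library, skeletal muscle markers 132 and adipocyte markers 151, with the adipocyte hormone Lep at 0 in all libraries of 5 of the 6 groups. The part of cell composition in the differences of the members was not tested.

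**Figure D2:**
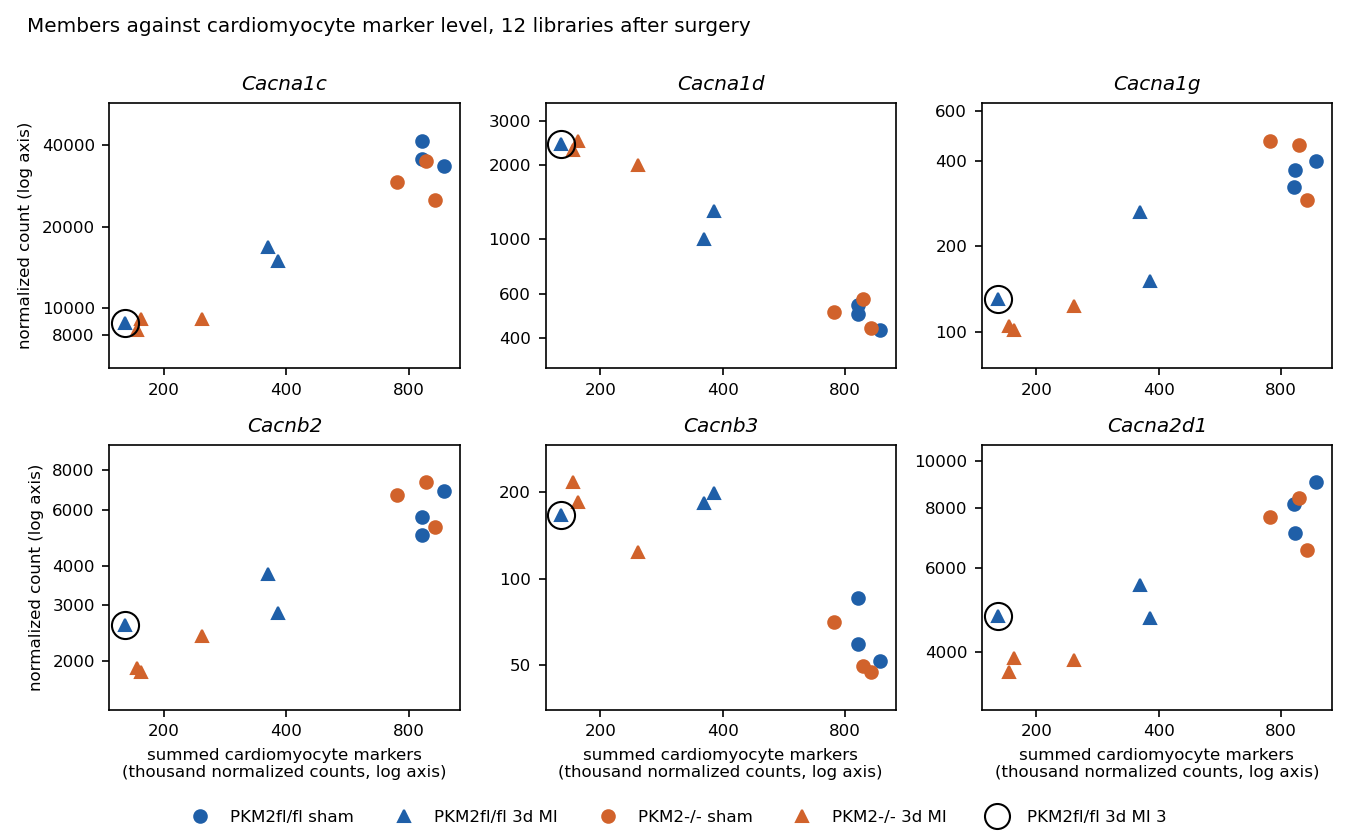
Normalized count of 6 members (vertical log axis) against the summed normalized count of 8 cardiomyocyte markers (horizontal log axis) in the 12 libraries after surgery. Circles are sham and triangles 3d MI ventricles, and the ringed triangle is PKM2fl/fl 3d MI 3, which lies at the low end of the marker level with 160574 normalized counts and at 2426 for Cacna1d.

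The same differences were taken relative to the cardiomyocyte markers, by scaling each library to its level of these genes. On that scale the median of all genes moved to 1.67 in PKM2fl/fl and 2.00 in PKM2-/- mice, so that 84.8% of genes were called higher and 0.321% lower in PKM2fl/fl, and 88% higher and 0.714% lower in PKM2-/- mice. Of the 9 members, 5 were called in PKM2fl/fl and 4 in PKM2-/- mice, all higher, against a background in which most genes were. Cacna1d had log2 differences of 3.26 and 4.16, and Cacnb3 of 3.16 and 3.61, above the median of all genes in both genotypes. Cacna1c stood at 0.19 (standard error 0.24, adjusted p = 0.462) in PKM2fl/fl and 0.27 (standard error 0.24, adjusted p = 0.292) in PKM2-/- mice, so that no difference between its drop and that of the cardiomyocyte markers was called. Cacna2d1 stood at 0.98 and 1.01 and Cacnb1 at 1.52 and 1.29, higher than the cardiomyocyte markers but below the median of all genes. Cacnb2 was called higher in PKM2fl/fl mice (0.73, adjusted p = 0.0165) and not in PKM2-/- mice (0.34, adjusted p = 0.233).

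**Figure D3:**
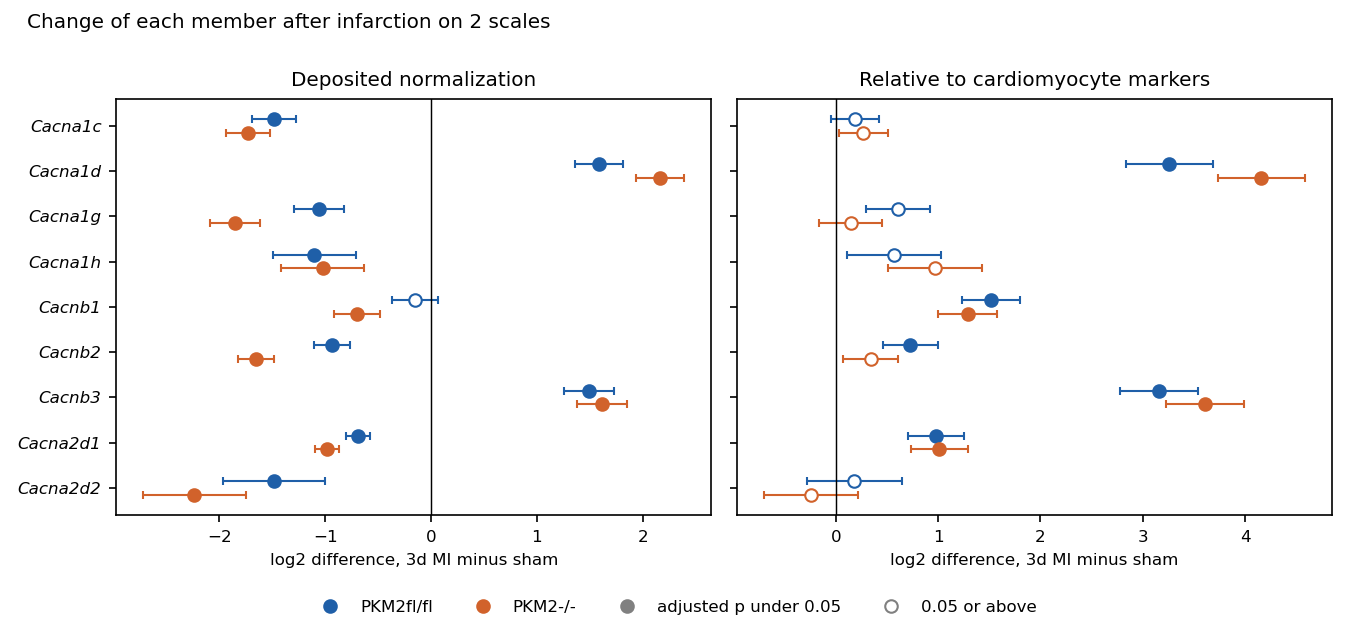
Log2 difference of each member, 3d MI minus sham, on the deposited normalization and relative to cardiomyocyte markers. Points are limma estimates with bars of 1 standard error, filled where the adjusted p was under 0.05. Cacna1d and Cacnb3 lie above 0 on both scales, and the members that fell on the first scale lie above 0 on the second, except Cacna2d2 in PKM2-/- mice, which was not called there.

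Within the 4 pore-forming members, the share of the summed count per kilobase that belonged to Cacna1d was 1.53% to 2.42% in the 10 libraries without infarction. It was 11.0%, 7.79% and 27.8% in the infarcted PKM2fl/fl ventricles and 23.7%, 28.1% and 28.0% in the infarcted PKM2-/- ventricles. Cacna1c held 93.9% to 95.9% without infarction and 69.1% to 88.8% with it. Measured over coding length in place of exon length, the share of Cacna1d in infarcted PKM2-/- ventricles was 20.4% in place of 26.6% (SD 2.51, n = 3). The T-type genes together held 2.09% to 4.19% throughout. Their share changed by -0.25 percentage points after infarction (exact permutation test within genotype, two-sided, p = 0.4, where the smallest p possible is 0.005), by 0.34 points in PKM2fl/fl alone (exact p = 0.4) and by -0.83 points in PKM2-/- alone (exact p = 0.1, the smallest possible). Among the 3 β members, Cacnb3 went from 1.61% to 3.99% of the level without infarction to 11.5% to 23.2% with it, and Cacnb2 from 91.1% to 95.1% down to 70.3% to 81.0%. Cacna2d1 held 97.4% to 99.6% of the level of the α2δ members in every library. These shares leave out the other genes of each class, such as Cacna1s, Cacna2d3 and Cacnb4, which at 31.3 ± 3.88 normalized counts per kilobase in PKM2fl/fl ventricles at baseline (SD, n = 2) was above Cacnb1 and Cacnb3. In the order of levels per kilobase, Cacna1d moved to the fourth place in infarcted PKM2fl/fl ventricles, at 104 ± 49.4 normalized counts per kilobase (SD, n = 3). In infarcted PKM2-/- ventricles it took the third place at 149 ± 16.6, where its values overlapped those of Cacna2d1 (172 ± 6.05) and Cacnb2 (140 ± 20.5). That place depends on the length used, here the union of exons over all transcripts. The union is 22094 bases for Cacna2d1 and 14636 for Cacnb2, against 9016 and 5353 in their longest transcripts. For Cacna1d these lengths are 15191 and 9658, so the union lowers its level per kilobase less.

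**Figure D4:**
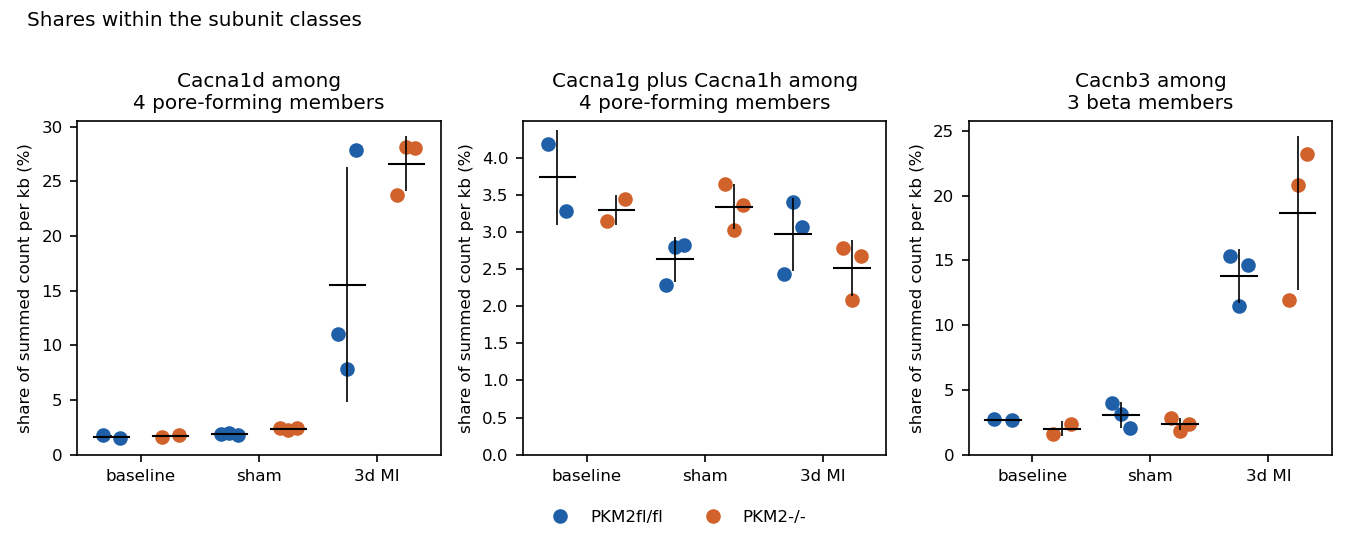
Share of the summed normalized count per kilobase of exon (%) held by Cacna1d and by the T-type genes among the pore-forming members, and by Cacnb3 among the β members. Points are mice, bars give the mean ± SD. The shares of Cacna1d and Cacnb3 are higher in all 6 infarcted ventricles than in the 10 others, and the T-type share spans 2.09% to 4.19% throughout.

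Promoter sequences are shown for the members that rose, Cacna1d and Cacnb3, as the 250 bases before each start in RefSeq (GRCm38.p6). Gene-level counts cannot tell the starts of a gene apart. Capitals mark matches, on either strand, to TATAAA or GGGCGG, the letters of a TATA box and a GC box, which 12.3% and 33.0% of 32536 mouse promoters of this length hold. The windows are, in order, chr14:30491157-30491406 and chr14:30353487-30353736 on the minus strand, and chr15:98632078-98632327 and chr15:98634517-98634766 on the plus strand.
Cacna1d start 1: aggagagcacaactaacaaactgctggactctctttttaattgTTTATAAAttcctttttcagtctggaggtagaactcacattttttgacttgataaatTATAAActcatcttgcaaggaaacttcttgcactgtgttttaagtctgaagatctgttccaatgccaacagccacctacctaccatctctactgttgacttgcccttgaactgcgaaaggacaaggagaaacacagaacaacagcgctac
Cacna1d start 2: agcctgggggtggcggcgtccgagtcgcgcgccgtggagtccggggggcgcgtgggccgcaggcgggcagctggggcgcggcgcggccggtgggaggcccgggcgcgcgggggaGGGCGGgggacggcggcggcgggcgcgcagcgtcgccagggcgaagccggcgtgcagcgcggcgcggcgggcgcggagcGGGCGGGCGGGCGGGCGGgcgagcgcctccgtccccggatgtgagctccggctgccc
Cacnb3 start 1: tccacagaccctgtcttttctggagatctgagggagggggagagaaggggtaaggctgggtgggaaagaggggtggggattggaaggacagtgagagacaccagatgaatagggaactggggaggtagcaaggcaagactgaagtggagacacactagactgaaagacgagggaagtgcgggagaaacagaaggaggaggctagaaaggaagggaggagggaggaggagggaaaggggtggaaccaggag
Cacnb3 start 2: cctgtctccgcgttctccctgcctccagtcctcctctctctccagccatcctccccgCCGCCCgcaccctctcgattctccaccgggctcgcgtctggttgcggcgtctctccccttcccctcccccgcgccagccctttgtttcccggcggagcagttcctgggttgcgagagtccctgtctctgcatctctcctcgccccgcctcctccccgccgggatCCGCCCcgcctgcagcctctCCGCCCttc
The starts of each gene differ in base composition. Start 1 of Cacna1d held 2 CG pairs and 3 overlapping or separate TATAAA matches, and start 2 held 50 CG pairs and 5 GGGCGG matches. Start 1 of Cacnb3 held 2 CG pairs and none of the letters searched, and start 2 held 23 CG pairs and 3 GGGCGG matches, beside a median of 6 CG pairs over all promoters. The letters TGANTCA of an AP-1 site and GATAAG of a GATA site, held by 6.73% and 6.42% of promoters, were in none of the 13 windows that matched 7 of the 9 members. The letters CATTCC of an MCAT site, held by 12.6%, were in 1 window, of Cacna2d2.

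Loss of PKM2 was compared at each treatment. None of the 9 members was called between PKM2-/- and PKM2fl/fl mice at baseline or after sham surgery (limma), beside 0.00972% of all genes in each. At an unadjusted p under 0.05 there were 0 members, beside 748 of the 20576 genes at baseline and 2047 after sham surgery. DESeq2, edgeR and limma-voom also called 0 members. The differences lay between -0.42 and 0.06 on the log2 scale at baseline, where n = 2, and between -0.38 and 0.14 after sham surgery. Cacna1c at baseline had 26775 and 32751 normalized counts in PKM2fl/fl and 32762 and 27094 in PKM2-/- mice, a difference of 0.0088 (standard error 0.25). Cacnb1 and Cacnb3 did not overlap between the genotypes at baseline, at -0.40 (standard error 0.27) and -0.42 (standard error 0.29), both lower in PKM2-/- mice without passing the test, which makes 2 of 9 members against 34.9% of all genes. The rRNA-related share of the reads differed between these groups, at 17.25% and 22.1% in PKM2fl/fl and 39.6% and 43.8% in PKM2-/- mice. With that share as a covariate no member was called at baseline either, and the difference of Cacna2d2 moved from -0.23 to 0.99 (standard error 0.51, adjusted p = 1).

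After infarction, 0 of the 9 members were called between the genotypes by limma, beside 0.967% of all genes, and 6 had an unadjusted p under 0.05, beside 17% of all genes. The count was 0 with edgeR and with limma-voom, 4 with edgeR without its filter on low counts, namely Cacna1c, Cacna1d, Cacna1g and Cacnb2, beside 4.26% of the genes in that fit, and 3 with DESeq2, namely Cacna1c, Cacnb2 and Cacna2d1, beside 5.64%. It was 1, Cacna1g, with the rRNA-related share as a covariate, beside 0.719%. The adjusted p values of limma ranged from 0.0992 for Cacna2d1, at a log2 difference of -0.39 (standard error 0.11), to 0.877 for Cacnb3, at -0.10 (standard error 0.24). The values of Cacna1g, Cacnb2 and Cacna2d1 did not overlap between the genotypes and were lower in PKM2-/- mice, which makes 3 of 9 members against 18.9% of all genes. Cacna1d stood at 0.62 (standard error 0.23, adjusted p = 0.181) and Cacna1c at -0.56 (standard error 0.21, adjusted p = 0.186).

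The number of members called between the genotypes depended on 1 library. Without PKM2fl/fl 3d MI replicate 3, which leaves 2 PKM2fl/fl infarcted ventricles, 6 of the 9 members were called, 1 higher and 5 lower in PKM2-/- mice, beside 11% of all genes. Cacna1d was higher by 0.98 on the log2 scale (standard error 0.15, adjusted p = 7.41e-04), and Cacna1c was lower at -0.84 (standard error 0.16, adjusted p = 0.00336). Cacna1g stood at -0.86 (adjusted p = 0.0312), Cacnb1 at -0.76 (adjusted p = 0.0304), Cacnb2 at -0.68 (adjusted p = 0.0229) and Cacna2d1 at -0.43 (adjusted p = 0.0334). Cacna1h, Cacnb3 and Cacna2d2 were not called without it either. The remaining PKM2fl/fl infarcted ventricles had more cardiomyocyte marker level than any PKM2-/- infarcted ventricle. Relative to the cardiomyocyte markers, with all libraries, Cacna1d stood at 1.05 between the genotypes after infarction (standard error 0.42, adjusted p = 0.273) and Cacna1c at -0.13 (standard error 0.24, adjusted p = 0.715).

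**Figure D5:**
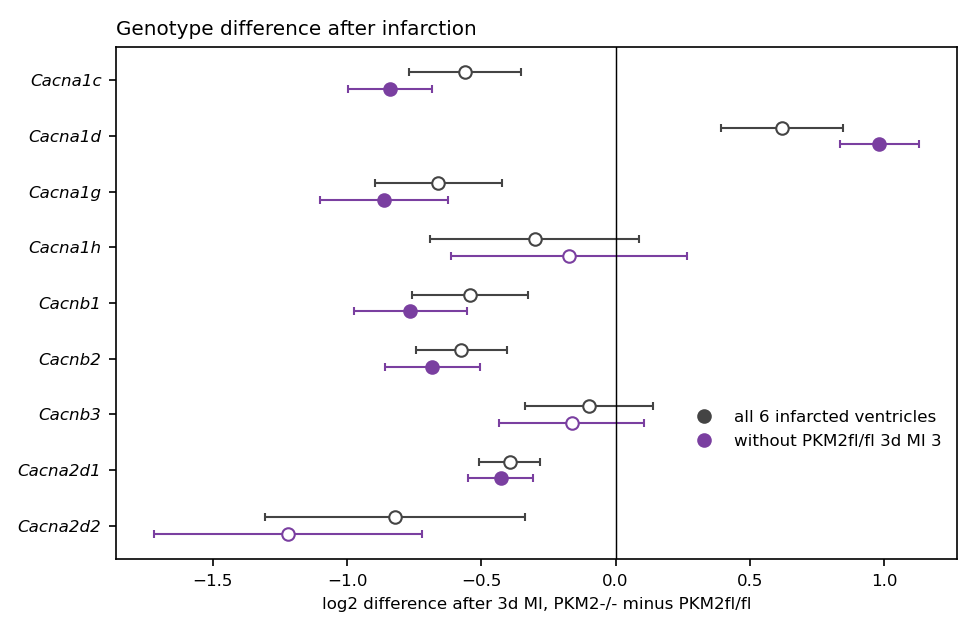
Log2 difference after 3d MI, PKM2-/- minus PKM2fl/fl, for each member with all 6 infarcted ventricles and without PKM2fl/fl 3d MI 3. Points are limma estimates with bars of 1 standard error, filled where the adjusted p was under 0.05. No point is filled with all libraries and 6 are without that library.

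The response to infarction itself was compared between the genotypes by an interaction term. None of the 9 members passed (limma, adjusted p from 0.502 to 0.978), 2 had an unadjusted p under 0.05, beside 8.28% of all genes, and 0% of all genes passed. The 2 were Cacnb2, with a difference of -0.71 between the responses (standard error 0.24, adjusted p = 0.502), and Cacna1g, with -0.79 (standard error 0.33, adjusted p = 0.57). DESeq2 and filtered edgeR also called 0, edgeR without its filter called Cacna1g (adjusted p = 0.0499, beside 1.34% of genes), and without PKM2fl/fl 3d MI replicate 3 limma called Cacna1d at 0.94 (standard error 0.20, adjusted p = 0.0244, beside 2.35% of genes).

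Sham surgery against baseline called 0 of the 9 members in PKM2fl/fl and 0 in PKM2-/- mice (limma), where 0.19% and 5.14% of all genes were called. At an unadjusted p under 0.05 there were 0 members in each, beside 1813 and 3886 of the 20576 genes. DESeq2 and edgeR called 0 as well. The largest differences were those of Cacna1d, at 0.48 in PKM2fl/fl (standard error 0.25, adjusted p = 0.653) and 0.46 in PKM2-/- mice (standard error 0.25, adjusted p = 0.367). It had 341 and 358 normalized counts in the PKM2fl/fl and 387 and 345 in the PKM2-/- baseline ventricles, and every sham value, from 429 to 572, was above all 4 of these. Cacnb2 stood at -0.40 in PKM2fl/fl (standard error 0.19, adjusted p = 0.566) and at -0.32 in PKM2-/- mice. The values of sham and baseline ventricles did not overlap for 3 of 9 members in PKM2fl/fl mice, namely Cacna1c, Cacna1d and Cacnb2, against 32.5% of all genes, and for Cacna1d alone in PKM2-/- mice, against 34.5%. The interaction of genotype with sham surgery called 0 of the 9 members (limma), as it called 0% of all genes, and DESeq2 and edgeR called 0 members. At an unadjusted p under 0.05 it held 0 members, beside 1294 of the 20576 genes.

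Of the 17 other voltage-gated calcium channel subunit genes in the table, 7 passed the filter on low values. After infarction, 2 of these rose and 3 fell in PKM2fl/fl mice, and 2 rose and 4 fell in PKM2-/- mice, with median log2 differences of 0.0073 and -0.71. Of all genes, 50.1% and 56.8% were called in these comparisons. The count of 2 in PKM2fl/fl mice includes Cacng4, which passed the filter only through the infarcted groups, so these counts are a description. Cacna2d3, a further α2δ gene, had 841 ± 86.7 normalized counts per kilobase in PKM2fl/fl sham ventricles, against 366 ± 44.1 for Cacna2d1. After infarction it had 211 ± 134 in PKM2fl/fl and 120 ± 17.2 in PKM2-/- mice, against 226 ± 20.5 and 172 ± 6.05 for Cacna2d1. Cacna2d3 fell from a mean of 8531 to 2145 normalized counts in PKM2fl/fl (log2 difference -2.28, standard error 0.40, adjusted p = 2.52e-04) and from 7893 to 1218 in PKM2-/- mice (-2.69, standard error 0.40, adjusted p = 4.21e-05). That drop was larger than the drop of either α2δ member, a difference that was not tested. Cacna1s, the L-type pore of skeletal muscle, fell by 2.67 and 3.00 on the log2 scale, and Cacnb4, the remaining β gene, fell by 0.58 and 0.72. Cacna1b, the N-type pore of neurons, rose by 1.13 (adjusted p = 0.0469) and 1.23 (adjusted p = 0.0284) from means of 13.9 and 14.9 normalized counts. Cacna1e, the R-type pore, stood at 0.54 (adjusted p = 0.128) in PKM2fl/fl and rose by 0.73 (adjusted p = 0.0383) in PKM2-/- mice. Cacna1a, the P/Q-type pore, stood at 0.0073 (adjusted p = 0.973) in PKM2fl/fl and fell by 0.71 (adjusted p = 8.88e-04) in PKM2-/- mice. Cacng4, an auxiliary γ subunit, averaged 2.33 to 8.57 normalized counts in the groups without infarction and 23.5 and 20.5 in the infarcted PKM2fl/fl and PKM2-/- groups, with log2 differences of 2.73 and 1.19 against sham surgery.

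Of 18 genes that regulate the L-type channel or couple it to calcium release, 17 were tested. After infarction 5 rose and 6 fell in PKM2fl/fl mice, and 5 rose and 7 fell in PKM2-/- mice, with medians of -0.24 and -0.30. These comparisons called 50.1% and 56.8% of all genes. Among those with the smallest p in PKM2fl/fl mice, Bin1, which shapes the T-tubule membrane where L-type channels sit, rose by 1.28 (adjusted p = 7.70e-06). Prkaca, the catalytic subunit of protein kinase A, fell by 1.08 (adjusted p = 6.26e-05) and Jph2, which holds T-tubules and sarcoplasmic reticulum together, by 1.41 (adjusted p = 1.26e-04). In PKM2-/- mice Bin1 rose by 1.27 (adjusted p = 5.01e-06), while Ryr2, the calcium release channel that Cacna1c triggers, fell by 1.92 (adjusted p = 5.99e-06) and Jph2 by 1.83 (adjusted p = 8.77e-06). After sham surgery, Gem, a small GTPase that inhibits L-type channels through the β subunit, was higher than at baseline in PKM2-/- mice. The log2 difference was 1.15 (limma, adjusted p = 0.0219), in a comparison that called 5.14% of all genes. Rrad, a GTPase of the same family, was lower in these mice, with 2344 and 1657 reads at baseline and 940, 1048 and 1616 after sham surgery. The size factors of these libraries were, in order, 0.858, 0.546, 0.622, 0.766 and 0.927. A shift of such inhibitors as a group was not tested.

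The genes whose pattern over the 16 libraries was most like that of each member were found by Pearson's r of the log2 values, a description over points that share the contrast of infarcted and other ventricles. For Cacna1c they were Fhod3, Dcaf11 and Actr8, with r of 0.99 for each. For Cacna1d they were Ptbp3, Pygl and Lyn, also at 0.99. Cacna1g was nearest to Ppp1r9a at 0.98, Gm43359 and Chrm2, and Cacna1h to Ahrr at 0.89, Tfpi and Paics. Cacnb1 was nearest to Dock6 at 0.92, Agrn and Gm45605, Cacnb2 to Fgf13 at 0.99, Akap6 and Qk, and Cacnb3 to 4930503L19Rik, Itgb5 and Sfmbt2 at 0.96 each. Cacna2d1 was nearest to Vps13d at 0.99, Ppp1r9a and Adcy9, so that Ppp1r9a stood near both Cacna1g and Cacna2d1, and Cacna2d2 to Irx2, Kcna7 and Gm12473 at 0.96 each.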

How the data were processed

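Left ventricle RNA was depleted of rRNA and sequenced from 16 mice, and per the labels 6 groups of genotype and treatment were formed. The authors used PRINSEQ for trimming, HISAT2 for alignment to mm10, featureCounts for gene counts and DESeq2 for normalization and comparison. Versions and the strand and multi-mapping settings are not given in the sources used here. The deposited normalized signal is the read count divided by a DESeq2 size factor. The deposited table also holds the authors' mean signal, log2 fold change with its error, test score and p-values between groups, which were not used.

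limma 3.58.1 (R 4.3.3) with a trended variance was fitted to log2(normalized count + 1) of 20576 genes with a mean of at least 10, over 6 groups, and p was adjusted by Benjamini-Hochberg over these genes. This took the place of a count test because the values are normalized. Log2 differences on this scale understate changes of low genes. Reads recovered from the values entered edgeR 4.0.16, DESeq2 1.42.0 and limma-voom as alternatives. The others were total reads, rRNA-related share, cardiomyocyte marker scaling, pseudocount 0.1, other filters, a 2-fold threshold, the replicate block and each library left out. Scripts were tested on simulated data. Positions came from RefSeq on GRCm38.p6 and exon lengths from GENCODE M39 on GRCm39.

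The members and the lists of other genes and markers were chosen with earlier results of these data known. All members are named. Other channel genes past the filter are named, at most 4 regulators with the smallest p per comparison (1 of them is not reported here), and for likeness the 3 genes with the highest r. The mice are separate animals, so p-values measure the spread between mice.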

Additional observations from a re-analysis of the deposited data

How the results depend on the processing

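Of 2502 alternative values of single members over 37 settings, 2451 kept their direction and side of the threshold, or were not called in either, and 22 lost a call, 16 gained one and 13 turned direction. All 13 turned relative to cardiomyocyte markers, a scaling that moves every gene by construction. In PKM2fl/fl mice the infarct minus sham values were then 0.19 for Cacna1c, 0.61 for Cacna1g, 0.57 for Cacna1h, 1.52 for Cacnb1, 0.73 for Cacnb2, 0.98 for Cacna2d1 and 0.18 for Cacna2d2. In PKM2-/- mice they were 0.27 for Cacna1c, 0.15 for Cacna1g, 0.97 for Cacna1h, 1.29 for Cacnb1, 0.34 for Cacnb2 and 1.01 for Cacna2d1. The count of members called for infarct minus sham became 5 in PKM2fl/fl and 4 in PKM2-/- mice on that scale. With total reads as the scale, the median of all genes moved by 0.52 in PKM2-/- and -0.18 in PKM2fl/fl mice. The counts were then 6 in PKM2-/- mice, where Cacna1h, Cacnb1 and Cacna2d1 were lost, and 8 in PKM2fl/fl. On the deposited normalization, 56.8% of all genes were called in PKM2-/- and 50.1% in PKM2fl/fl mice. The shares with total reads are not given here, so these counts have no background from their own fit. Cacna1h was also lost with limma-voom in both genotypes (adjusted p = 0.0688 and 0.0597), and in PKM2-/- mice without a filter on low values (adjusted p = 0.0578) or with the rRNA-related share as a covariate (adjusted p = 0.0732). That covariate also ended the call of Cacna2d2 in PKM2fl/fl mice (-0.77, adjusted p = 0.123).

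The genotype difference after infarction went from 0 called members to 4 with edgeR without a filter, 3 with DESeq2 and 1 (Cacna1g, adjusted p = 0.0491) with the rRNA-related share as a covariate. The interaction of genotype and infarction went from 0 to 1 with edgeR without a filter. The cause was not tested. With 1 library left out in turn, the counts ranged from 0 to 6 for the genotype difference after infarction, 0 to 1 for its interaction, 7 to 8 for infarct minus sham in PKM2fl/fl and 8 to 9 in PKM2-/- mice. They stayed at 0 for the other comparisons, and the T-type share ranged from -0.36 to -0.11 percentage points. The replicate numbers do not pair animals, since r of the deviations of 36 same-numbered pairs ran from -0.196 to 0.126, with 1 over 0.1. With the replicate block, 8 members were called for infarct minus sham in PKM2fl/fl and 9 in PKM2-/- mice, and 0 in the other comparisons. Without the block, 50.1% and 56.8% of all genes were called for infarct minus sham, and the shares with it are not given here. Depth limits Cacna2d2, at 4 reads in its lowest library, and Cacna1h. It also limits Cacnb3, which had 44, 38 and 44 reads in the PKM2-/- sham ventricles and 45 and 34 in the PKM2-/- baseline ventricles. In the PKM2fl/fl sham ventricles Cacnb3 had 146, 58 and 106 reads.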
